A study of Mus musculus with 14 samples.

Results

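Bone morphogenetic protein (BMP) signaling was followed here through 10 genes, measured by RNA sequencing of mouse embryonic stem cells (mESCs) and of the embryoid bodies (EBs) that they form. The 10 genes were listed by symbol. They comprise the ligand genes Bmp2, Bmp4, Bmp5, Bmp6 and Bmp7, the target genes Id1, Id2 and Id3, and the genes of the secreted antagonists Noggin (Nog) and Gremlin 1 (Grem1). All 10 are among the 50686 genes of the deposited count table and among the 16181 genes of the deposited CPM table (CPM, counts scaled to a common library size).

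A pair of stable knockdown lines was compared, a control carrying a short hairpin RNA (shRNA) against LacZ (shLacZ) and a line carrying an shRNA against Dis3l2 (shDis3l2). DIS3L2 is an exoribonuclease that degrades uridylated RNA. The cells also carry a reporter for Osr1. Whether a line is a single clone is not given in the sources used here. Both lines were sampled at day 0 (d0), as undifferentiated cells in LIF and 2i, and as EBs every second day from d2 to d12, formed in hanging drops with serum and without LIF or 2i. Each of the 14 libraries is the only one of its line and day.

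BMP ligands are secreted as dimers and bind complexes of type I and type II serine/threonine kinase receptors, which phosphorylate the receptor Smads, SMAD1, SMAD5 and SMAD9. These enter the nucleus with SMAD4 and activate target genes, among which the Id genes are widely used as a readout. ID proteins lack a DNA-binding region and sequester E proteins, the partners of many lineage transcription factors, while Noggin and Gremlin 1 bind ligands outside the cell and keep them from the receptors. In the early mouse embryo this pathway acts in the induction of mesoderm, extraembryonic mesoderm and germ cells, and serum and BMP4 support self-renewal of mESCs through Id genes.

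The upstream sequences of members that differed between the lines over d6 to d12 are shown first, since the Id genes and some ligands are themselves controlled by this pathway. RefSeq promoter entries (GRCm38.p6) were available for 6 of the 10 genes (Bmp4, Bmp5, Bmp6, Id2, Id3 and Grem1), and the 250 bases before the annotated start are printed for the 4 of them that were called different over d6 to d12 and whose window lies outside their annotated exons. Each is on the strand of its gene, at chr14:46390670-46390919 (minus) for Bmp4, chr13:38345466-38345715 (plus) for Bmp6, chr12:25096093-25096342 (minus) for Id2 and chr2:113758649-113758898 (minus) for Grem1. Capitals mark the GC-rich Smad element GGCGCC and the Smad box CAGAC, searched on both strands.
Bmp4: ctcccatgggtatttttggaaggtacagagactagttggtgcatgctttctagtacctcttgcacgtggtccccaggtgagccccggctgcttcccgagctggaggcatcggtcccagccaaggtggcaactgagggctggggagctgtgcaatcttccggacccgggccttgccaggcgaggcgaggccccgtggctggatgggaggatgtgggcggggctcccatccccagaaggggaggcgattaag
Bmp6: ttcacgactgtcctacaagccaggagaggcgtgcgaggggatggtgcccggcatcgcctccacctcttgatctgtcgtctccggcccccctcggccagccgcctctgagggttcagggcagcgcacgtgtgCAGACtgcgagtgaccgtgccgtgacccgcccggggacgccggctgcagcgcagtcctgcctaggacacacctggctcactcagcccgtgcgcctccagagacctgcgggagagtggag
Id2: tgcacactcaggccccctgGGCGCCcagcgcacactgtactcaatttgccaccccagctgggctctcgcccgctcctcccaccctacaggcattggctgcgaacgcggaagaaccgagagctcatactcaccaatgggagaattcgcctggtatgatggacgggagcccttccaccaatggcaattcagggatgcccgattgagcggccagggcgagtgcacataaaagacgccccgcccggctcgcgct
Grem1: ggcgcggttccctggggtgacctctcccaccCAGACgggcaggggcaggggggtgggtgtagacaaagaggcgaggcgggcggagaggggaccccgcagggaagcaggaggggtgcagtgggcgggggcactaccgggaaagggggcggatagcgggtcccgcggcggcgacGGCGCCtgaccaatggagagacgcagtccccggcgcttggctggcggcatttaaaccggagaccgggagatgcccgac
The Id2 window held 1 GGCGCC, 231 bases before the start, and the Grem1 window held 1, 78 bases before it, where distances run to the first base of the match as printed. A CAGAC lay 219 bases upstream of Grem1 and 119 bases upstream of Bmp6, and the Bmp4 window held neither motif. The windows of Bmp5 and Id3 were not printed because they overlap annotated exons, by 1 base and by all 250 bases, and Bmp5 was also not called. They held 1 and 2 CAGAC matches and no GGCGCC, where the matches of Id3 lie within an annotated exon. Among all 32817 promoter windows of this length 9.59% held GGCGCC and 42.2% held CAGAC, so the matches are a description of these letters only. The E-box CANNTG, the kind of site that E proteins bind, was found 3 times upstream of Bmp4, 2 times upstream of Bmp6 and 1 time upstream of Id2, against 66.2% of all windows with at least 1. The TATAAA box was found in none of the 6 windows and in 12.4% of all windows.

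The reads assigned to genes numbered 7178712 in the shallowest library (shLacZ at d4) and 39888099 in the deepest (shLacZ at d0), so that 3 counts, used as the floor of detection, equal 0.0752 to 0.418 CPM. Depth differed between the lines by 2.88 times at d4 and 2.56 times at d10, and by 1.51 times or less on every other day. Intervals of folds on a single day are exact 95% intervals (Clopper-Pearson) and cover counting error only, since reads are not independent molecules and no day has a replicate. Dis3l2 itself stood in the libraries labelled shDis3l2 at 13.7%, 28.1%, 32.1% and 55.2% of its shLacZ level from d0 to d6 and at 75.4% at d12. At d8 it stood at 97.1% and at d10 at 94.98%, with counting intervals that include 100%, so that no knockdown was detectable in the libraries labelled shDis3l2 of these 2 days. All shDis3l2 values below are those of the libraries so labelled, and a loss of a call over d6 to d12 on leaving out d8 or d10 is given beside it.

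All 10 genes changed over the 7 days (edgeR quasi-likelihood test with both lines together, 0.05 threshold of the adjusted p), as did 84.7% of the 20050 genes tested. The adjusted p ranged from 2.6e-06 for Nog to 0.0463 for Id3, and without d0 the change of Id3 was no longer called (adjusted p = 0.316). In undifferentiated cells only Bmp4 and Bmp7 of the 5 ligands were above the floor in both lines, and the peak of Bmp2, Bmp4 and Bmp5 was at d6 in both lines. Id1 and Id2 rose from d0 to d2, by 4.28-fold and 25.2-fold in shLacZ and by 16.7-fold and 15.8-fold in shDis3l2. These folds are on library totals. The TMM scaling factors of shLacZ and shDis3l2 were 0.764 and 0.642 at d0 against 1.09 and 1.05 at d2, so that the rises are smaller with TMM scaling. Nog had its highest level at d12, and the plots of CPM by day show these courses for each gene.

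**Figure D1:**
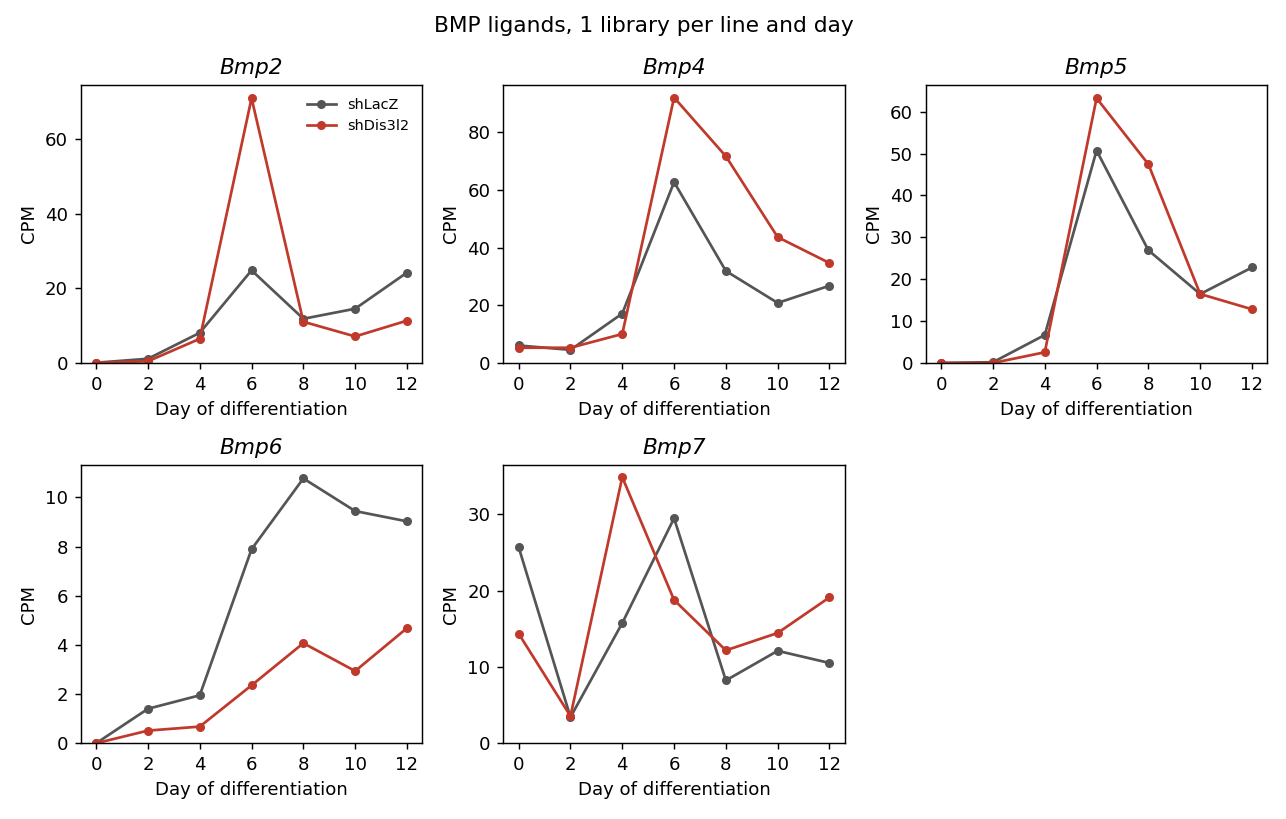
Level of the 5 BMP ligand genes in CPM (vertical axis) against day of differentiation (horizontal axis), each point 1 library of the shLacZ line (grey) or of the line labelled shDis3l2 (red), with a scale of its own for each gene. Bmp4 and Bmp5 peaked at d6 in both lines, Bmp2 reached 70.9 CPM in shDis3l2 against 24.8 CPM in shLacZ at d6, and Bmp6 was lower in shDis3l2 on every day from d2 on.

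Bmp4, the ligand that induces mesoderm and germ cells in the embryo, was the most abundant ligand per length from d6 on and was higher in the line labelled shDis3l2 from d6 on. In shLacZ its level by day from d0 to d12 was 6.07, 4.55, 17.1, 62.7, 31.9, 20.8 and 26.8 CPM. In shDis3l2 it was 5.29, 5.28, 10.1, 92.0, 71.6, 43.6 and 34.6 CPM. The lines thus stood close together at d0 and d2, shDis3l2 was the lower at d4, and it was the higher on each of the 4 later days. The fold of shDis3l2 over shLacZ was 0.587 (0.467 to 0.739) at d4. It was 1.47 (1.34 to 1.61), 2.25 (2.03 to 2.49), 2.10 (1.78 to 2.48) and 1.29 (1.10 to 1.52) from d6 to d12. With the days d6 to d12 as blocks Bmp4 was 0.78 ± 0.15 (log2, SE) higher (edgeR adjusted p = 0.0071), in a test that called 38.3% of 17164 genes, 19.6% higher and 18.7% lower. The call held without any 1 of the 4 days (adjusted p = 0.0038 to 0.0425) but not without the day block (adjusted p = 0.215). The 4 days stand in for replicates in this test, so its p-values do not reach beyond these cultures.

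Bmp6 was lower in the line labelled shDis3l2 on every day it was detected. It had no count at d0 in either line and then stood at 1.40, 1.95, 7.89, 10.8, 9.44 and 9.03 CPM in shLacZ from d2 to d12. The shDis3l2 levels on the same days were 0.514, 0.677, 2.36, 4.07, 2.94 and 4.68 CPM. Every shDis3l2 value from d6 on was below every shLacZ value from d6 on, and the fold lay between 0.299 (0.185 to 0.465) at d6 and 0.519 (0.360 to 0.741) at d12. Across d6 to d12 the difference between the lines (shDis3l2 minus shLacZ) was -1.44 ± 0.19 (log2, SE; edgeR adjusted p = 0.0018), a call kept without any 1 of these days (adjusted p = 0.0023 to 0.0184). Across all 7 days it was -1.49 ± 0.19 (edgeR adjusted p = 0.0129), where 3.82% of genes were called lower, and that call was lost without d8, d10 or d12 (adjusted p = 0.067, 0.0625 and 0.0519).

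Bmp2, which shares its receptors with BMP4 and acts in heart and extraembryonic mesoderm, differed between the lines in opposite directions on different days. In shLacZ it stood at 0.0752, 1.14, 8.08, 24.8, 11.8, 14.5 and 24.2 CPM from d0 to d12. In shDis3l2 it stood at 0.0378, 0.467, 6.48, 70.9, 11.04, 7.10 and 11.3 CPM, where the d0 values of both lines are at or under the floor. The shDis3l2 line had the far higher peak at d6, at 2.86 times the shLacZ level (2.51 to 3.26), and the lower levels at d10 (0.489-fold, 0.382 to 0.627) and d12 (0.468-fold, 0.373 to 0.585). Its rise from d4 to d6 was 10.9-fold (9.10 to 13.3) in shDis3l2 and 3.07-fold (2.32 to 4.13) in shLacZ, and from d6 to d8 it fell to 0.156 and 0.477 of the d6 level. No difference was called over d6 to d12 (-0.14 ± 0.43, log2, SE; edgeR adjusted p = 0.82). Without d6 the same test gave -0.74 (adjusted p = 0.0351), and without d10 or d12 the estimate was above 0 (0.14 and 0.21), so that its sign rests on single days.

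Bmp5, a ligand of the same subgroup as Bmp6 and Bmp7, followed the course of Bmp4 but ended lower in shDis3l2. It had no count at d0, and from d2 on it stood at 0.190, 6.69, 50.7, 26.9, 16.5 and 22.8 CPM in shLacZ. In shDis3l2 it had no count at d2 and then 2.56, 63.2, 47.5, 16.5 and 12.8 CPM. The fold was 0.383 (0.254 to 0.578) at d4, rose to 1.76 (1.58 to 1.98) at d8 by way of 1.25 (1.12 to 1.39) at d6, and was 1.001 (0.819 to 1.23) and 0.562 (0.452 to 0.698) at the end. The order of the lines turned around between d8 and d12, and over d6 to d12 no difference was called (0.12 ± 0.24, log2, SE; edgeR adjusted p = 0.74). The estimate turned to -0.15 without d8.

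Bmp7, which acts in kidney and eye development, was the ligand with the highest level per length at d0. From d0 to d12 it stood at 25.7, 3.41, 15.7, 29.5, 8.22, 12.1 and 10.5 CPM in shLacZ. In shDis3l2 it stood at 14.4, 3.55, 34.8, 18.8, 12.2, 14.4 and 19.1 CPM, with its peak at d4, where shLacZ peaked at d6. It fell from d0 to d2 in both lines, to 0.133 and 0.247 of the d0 level on library totals, and further with TMM scaling. The fold between the lines was 2.21 at d4 (1.81 to 2.72), 0.637 at d6 (0.534 to 0.757) and 1.82 at d12 (1.43 to 2.32), and over d6 to d12 no difference was called (0.23 ± 0.24, log2, SE; edgeR adjusted p = 0.48). Without d6 the estimate was 0.54 (adjusted p = 0.0321).

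Per length of exon, the scale on which levels of different genes can be compared, Bmp4 made up the largest share of the summed ligand RNA from d6 on in both lines. The 5 genes together stood at 58.4 CPM per kb in shLacZ and 82.7 CPM per kb in shDis3l2 at d6, and at 30.9 and 28.7 CPM per kb at d12. Bmp4 made up 48.3%, 46.5%, 38.3% and 39.0% of this sum in shLacZ at d6, d8, d10 and d12. In shDis3l2 it made up 50.0%, 62.2%, 64.3% and 54.4%, so that the lines were close at d6 and apart from d8 on. The share of Bmp6 was 5.61% to 16.0% in shLacZ and 1.18% to 6.78% in shDis3l2 over the same days. These shares are of RNA and have no replicate.

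**Figure D2:**
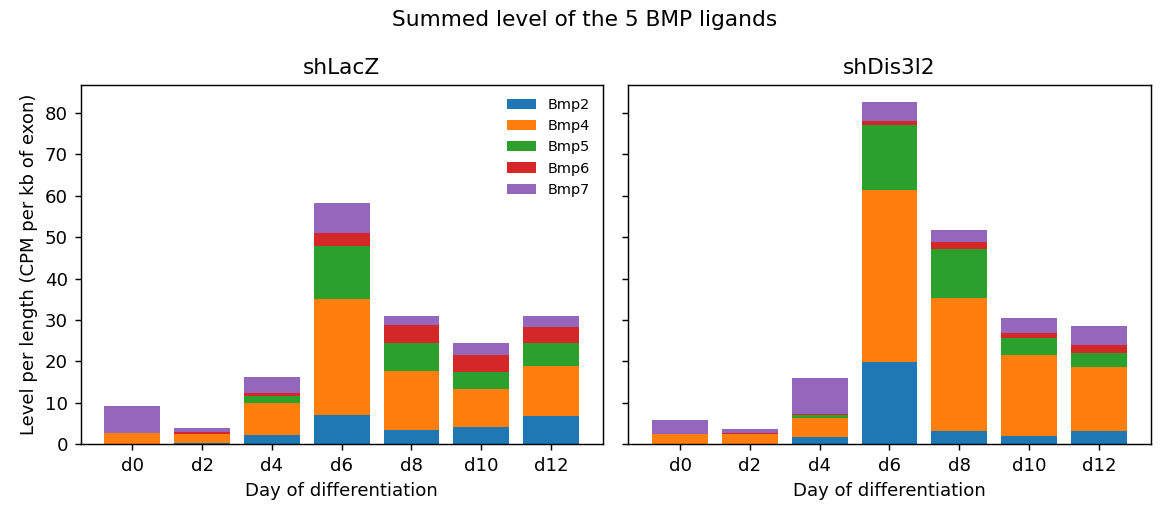
Summed level of the 5 ligand genes per length (vertical axis, CPM per kb of exon) by day (horizontal axis) in the shLacZ line (left) and the line labelled shDis3l2 (right), each bar 1 library and each color 1 gene. The d6 bar is the highest in both lines, at 58.4 and 82.7 CPM per kb, and Bmp4 makes up 50.0% to 64.3% of the shDis3l2 bars from d6 on.

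The Id genes were already expressed at d2, ahead of the ligand peak, and all 3 were lower in the line labelled shDis3l2 over d6 to d12. Id1, a direct target of BMP receptor Smads, stood at 10.1, 43.1, 67.8, 88.8, 53.2, 50.0 and 45.4 CPM from d0 to d12 in shLacZ. In shDis3l2 it stood at 3.13, 52.5, 55.6, 61.6, 38.3, 27.4 and 33.4 CPM. It was lower in shDis3l2 on each of the 5 days from d4 on, with folds of 0.819 (0.736 to 0.913), 0.694 (0.630 to 0.764), 0.720 (0.653 to 0.794), 0.548 (0.482 to 0.623) and 0.736 (0.639 to 0.847) in day order. In the test of d6 to d12 the shDis3l2 level differed from that of shLacZ by -0.59 ± 0.09 (log2, SE; edgeR adjusted p = 0.0032), a call kept without any 1 day (adjusted p = 0.0051 to 0.0208) and lost without the day block (adjusted p = 0.198).

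At d0 the Id genes differed in opposite directions between the lines. Id1 was at 0.312 of the shLacZ level (0.243 to 0.396) in shDis3l2, while Id2 was at 1.88 times (1.41 to 2.50) and Id3 at 1.65 times (1.53 to 1.78) it. The median log2 fold of all genes with at least 1 CPM at d0 was -0.32 on library totals, against which these folds are to be read. With TMM scaling Id1 was at 0.356 and with DESeq2 size factors at 0.409 of the shLacZ level, short of the 3-fold mark on both. On the same scalings Id2 was at 2.14 and 2.46 times and Id3 at 1.88 and 2.16 times the shLacZ level. Both Id3 values lie above its counting interval, so that the size of the d0 differences depends on the scaling.

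Id2 stood at 2.26, 56.7, 38.9, 106.6, 128.2, 115.2 and 109.1 CPM in shLacZ from d0 to d12 and was the most abundant of the 3 per length from d6 on in both lines. In shDis3l2 it stood at 4.23, 66.9, 17.1, 104.8, 106.9, 93.3 and 83.4 CPM. Its d2 level was above its d4 level in both lines, and the fold between the lines was 0.439 at d4 (0.374 to 0.515), with counting intervals that include 1 at d6 only, and 0.833, 0.810 and 0.765 at d8, d10 and d12. In that test the difference of shDis3l2 from shLacZ was -0.25 ± 0.08 (log2, SE; edgeR adjusted p = 0.0435), a call lost without d8, d10 or d12 (adjusted p = 0.142, 0.144 and 0.167), with DESeq2 (adjusted p = 0.0522) and without the low-count filter (adjusted p = 0.056).

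Id3 stood at 30.6, 42.8, 96.1, 118.2, 76.7, 71.8 and 78.6 CPM in shLacZ and had the highest level of the 3 at d0. In shDis3l2 it stood at 50.5, 49.6, 73.1, 111.0, 63.6, 45.7 and 68.0 CPM, above shLacZ at d0 and d2 and below it on the 5 later days. The fold was lowest at d10, at 0.637 (0.574 to 0.706), and its counting interval included 1 at d6. For Id3 the line difference across d6 to d12 was -0.31 ± 0.10 (log2, SE; edgeR adjusted p = 0.0414), a call lost without d8, d10 or d12 (adjusted p = 0.122, 0.132 and 0.0865) and on library totals (adjusted p = 0.0518).

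**Figure D3:**
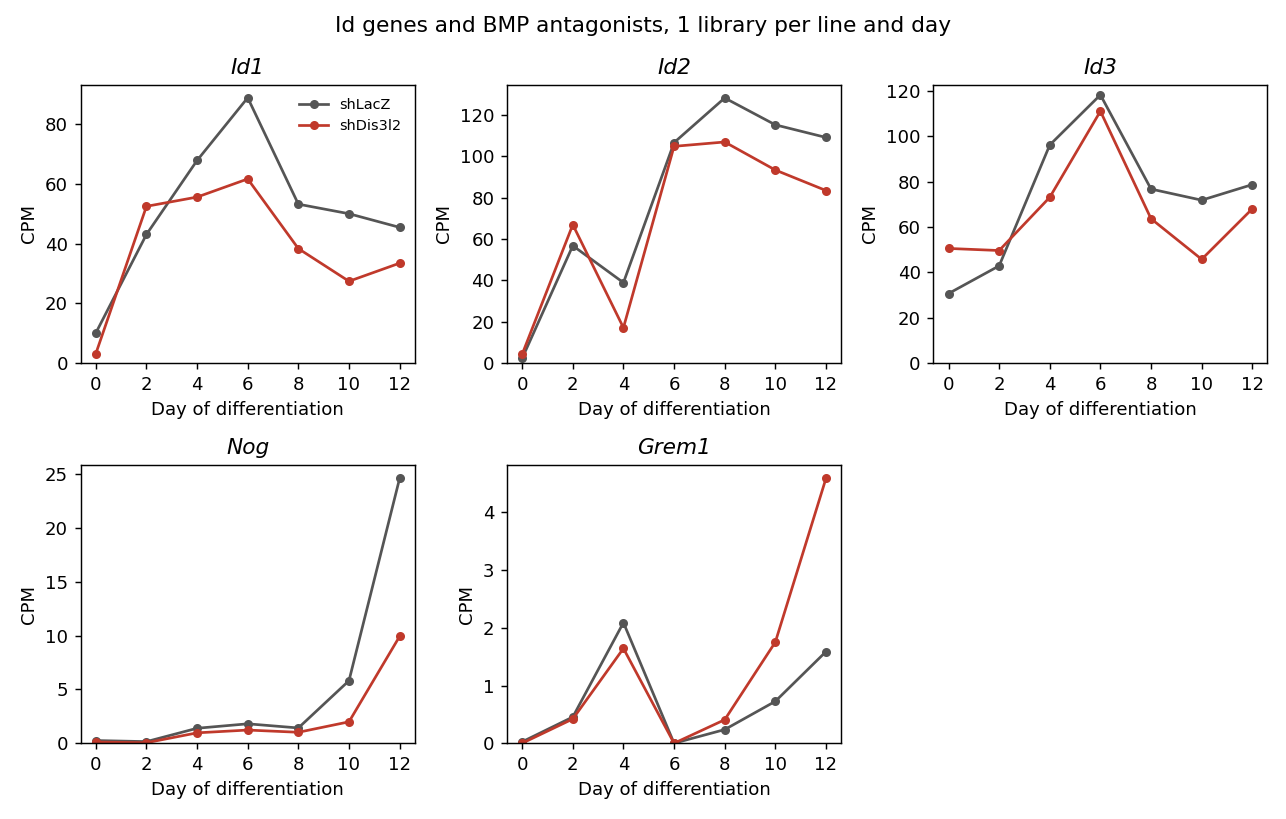
Level of Id1, Id2, Id3, Nog and Grem1 in CPM (vertical axis) against day of differentiation (horizontal axis), each point 1 library of the shLacZ line (grey) or of the line labelled shDis3l2 (red), with a scale of its own for each gene. From d8 on each Id gene is lower in shDis3l2, and Nog at d12 reaches 24.6 CPM in shLacZ and 9.93 CPM in shDis3l2.

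The 2 antagonist genes differed between the lines in opposite directions over d6 to d12. Nog, which encodes an antagonist needed for neural and somite patterning, stood at 0.251, 0.152, 1.39, 1.80, 1.42, 5.81 and 24.6 CPM in shLacZ from d0 to d12. In shDis3l2 it stood at 0.113, 0.0467, 0.966, 1.23, 1.02, 1.99 and 9.93 CPM, where the first 2 values are at or under the floor. It was the lower in shDis3l2 on all 7 days, but counting intervals included 1 on the first 5, and the fold was 0.342 (0.221 to 0.529) at d10 and 0.404 (0.318 to 0.509) at d12. From d10 to d12 it rose 4.23-fold (3.10 to 5.89) in shLacZ and 4.99-fold (3.46 to 7.32) in shDis3l2.

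For Nog the difference of shDis3l2 from shLacZ was -1.08 ± 0.24 (log2, SE; edgeR adjusted p = 0.0127) across d6 to d12 and -1.02 ± 0.22 across all 7 days (edgeR adjusted p = 0.0339). The first call was lost without d10 or d12 (adjusted p = 0.0706 and 0.0781), the days that hold most of its counts. The second was lost without d6, d8, d10 or d12 (adjusted p = 0.0732, 0.0945, 0.132 and 0.142). Both were lost without the day block (adjusted p = 0.421 and 0.9999).

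Grem1, which is best known as a BMP antagonist of limb bud and kidney, was the member of lowest level, and no library held more than 49 counts of it. Its counts in shLacZ from d0 to d12 were 1, 12, 15, 0, 4, 6 and 16. In shDis3l2 they were 0, 9, 34, 0, 8, 37 and 49. It was thus present at d4, without a count at d6 in both lines, which allows up to 0.226 CPM in shLacZ and 0.283 CPM in shDis3l2, and present again later. At d12 it reached 1.59 CPM in shLacZ and 4.59 CPM in shDis3l2, where the fold was 2.89 (1.62 to 5.45). In the test of these late days Grem1 was 1.26 ± 0.37 (log2, SE) higher (edgeR adjusted p = 0.0396), a call lost without d8, d10 or d12 (adjusted p = 0.0854, 0.149 and 0.212) and with DESeq2 (adjusted p = 0.199).

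Per length, Nog RNA made up all of the sum of the 2 antagonists at d6, since Grem1 had no count, and at least 93.6% of it in shLacZ and 73.5% in shDis3l2 from d8 on. At d12 the sum was 14.9 CPM per kb in shLacZ and 6.96 CPM per kb in shDis3l2. The ligand sums of the same day were 30.9 and 28.7 CPM per kb.

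Of the 10 genes, 7 were called over d6 to d12, 2 higher (Bmp4 and Grem1) and 5 lower (Bmp6, Nog, Id1, Id2 and Id3), beside 38.3% of all genes tested. The median difference of all genes was 0.02 (log2). With DESeq2 5 of the 10 were called. Without the day block 9 of the 10 passed the low-count filter and only Bmp6 was called (edgeR adjusted p = 0.0064). Over the 7 days 2 of the 10 were called, both lower (Bmp6 and Nog), against 5.72% of all genes, 1.91% higher and 3.82% lower. The change of the line difference between d0 to d4 and d6 to d12 was called by edgeR for none of the 10 and for 10.1% of genes, 4.85% with a rise and 5.24% with a fall. At an unadjusted p under 0.05 there were 4, Bmp4 (0.88 ± 0.28), Bmp5 (1.54 ± 0.61), Grem1 (1.48 ± 0.60) and Id3 (-0.66 ± 0.27, all log2, SE; edgeR adjusted p = 0.0735, 0.138, 0.144 and 0.146), and DESeq2 called 1 of the 10, Bmp4 (adjusted p = 0.0425).

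On single days, a fold of at least 3 with at least 1 CPM in 1 library was reached 3 times, each time lower in shDis3l2. These were Id1 at d0 and Bmp6 at d6 and at d10. Of all protein-coding genes above that level, 2.29%, 0.129%, 1.68%, 4.21%, 3.71%, 3.13% and 1.39% were this much lower from d0 to d12. The share this much higher was 0.584%, 0.114%, 0.361%, 2.69%, 5.47%, 8.62% and 8.1%, and none of the 10 was among them. Bmp2 at d6 lay just short of 3-fold higher, and Bmp6 at d4 (0.347-fold), Nog at d10 (0.342-fold) and Grem1 at d12 lay short of it too. At d4, 9 of the 10 genes were lower in shDis3l2, with a median log2 fold of -0.46 where that of all genes was -0.01, and Bmp7 was the exception. The counting intervals of 3 of the 9, Bmp2, Nog and Grem1, included 1.

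**Figure D4:**
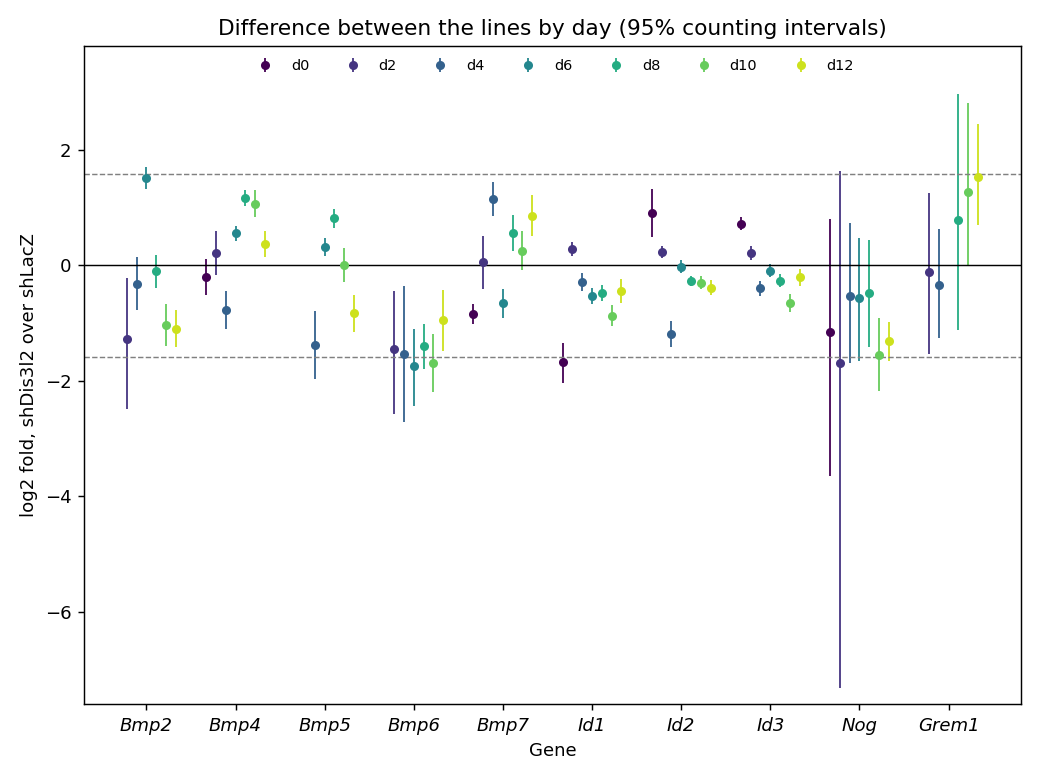
Difference between the lines for each gene (horizontal axis) as log2 fold of shDis3l2 over shLacZ (vertical axis), with 1 point per day from d0 (dark) to d12 (yellow), bars for the 95% counting intervals and dashed lines at 3-fold, leaving out days on which a line had no count or both were at the floor. Bmp6 lies below 0 on every day shown, Id1 from d4 on, and Bmp2 ranges from 1.52 at d6 to -1.28 at d2.

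The other genes of the pathway were described in lists by role. The counts of called genes in each list are to be read against all genes tested over d6 to d12, of which 19.6% were higher and 18.7% lower. Among ligands of the BMP and GDF families, 1 of 5 tested was lower over d6 to d12 and none was higher. This was Gdf3, a Nodal-like ligand of pluripotent cells, which stood at 10.3, 16.6, 13.3 and 13.6 CPM in shLacZ and 0.754, 2.14, 5.54 and 9.18 CPM in shDis3l2 from d6 to d12 (-1.92 ± 0.48, log2, SE; edgeR adjusted p = 0.0189), a call lost without d8 or d10 (adjusted p = 0.0956 and 0.0538). Of 10 receptors and co-receptors tested 2 were higher, near the 19.6% of all genes, and none was lower. These were the type II receptors Bmpr2 (0.42 ± 0.09, adjusted p = 0.0117) and Acvr2a (0.46 ± 0.11, adjusted p = 0.0142). Without d8 neither was called (adjusted p = 0.0535 and 0.0687), nor was Acvr2a without d10 (adjusted p = 0.0679). Bmpr1a, a type I receptor, was not called (0.13 ± 0.09, adjusted p = 0.266). The summed level of the receptor list was 369 to 397 CPM in shLacZ and 418 to 483 CPM in shDis3l2 over these days.

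The Smad genes moved in different directions. Smad5 was higher in the line labelled shDis3l2 (0.69 ± 0.11, edgeR adjusted p = 0.0044), with 98.0, 89.2, 72.0 and 80.5 CPM in shLacZ and 127.7, 128.7, 145.7 and 147.7 CPM in shDis3l2 from d6 to d12. Smad4, the shared partner, was higher (0.28 ± 0.06, adjusted p = 0.0124), a call lost without d8 or d10 (adjusted p = 0.0633 and 0.0527). Smad1 was lower (-0.31 ± 0.09, adjusted p = 0.0333), a call lost without d8, d10 or d12 (adjusted p = 0.109, 0.130 and 0.113) and without the low-count filter (adjusted p = 0.0611). Smad9 was not called (-0.11 ± 0.24, adjusted p = 0.740).

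Among 5 inhibitors that act in or on the cell, only Bambi was called. It encodes a decoy receptor that is itself induced by BMP signaling, and it stood at 86.7, 52.2, 35.7 and 32.6 CPM in shLacZ and at 151.8, 123.3, 160.9 and 99.4 CPM in shDis3l2 from d6 to d12 (1.43 ± 0.20, edgeR adjusted p = 0.0025). Smad6 (0.56 ± 0.23, adjusted p = 0.0981) and Smad7 (-0.18 ± 0.12, adjusted p = 0.265), the inhibitory Smads, were not called.

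Of 12 other secreted antagonists and modulators tested and reported here, 2 were higher and 4 lower, beside 19.6% and 18.7% of all genes. Nbl1, of the same DAN family as Grem1, was higher (2.32 ± 0.26, edgeR adjusted p = 0.0012), with 4.36, 1.83, 2.18 and 1.79 CPM in shLacZ and 15.0, 7.43, 11.6 and 18.0 CPM in shDis3l2 from d6 to d12. Kcp, a chordin-like modulator, was also higher (1.33 ± 0.32, adjusted p = 0.0167), a call lost without d8 or d10 (adjusted p = 0.0763 and 0.0915). Cer1, a DAN family antagonist of Nodal and BMP, was lower (-2.52 ± 0.67, adjusted p = 0.0243), a call lost without d12 (adjusted p = 0.0801). So was Fst, which encodes the activin and BMP antagonist follistatin (-1.26 ± 0.14, adjusted p = 0.0010). Crim1 and Bmper, named here after their values were seen, were lower too (-1.08 and -0.42, adjusted p = 0.00034 and 0.0455), the second lost without any 1 of the 4 days (adjusted p = 0.0524 to 0.123). Bmp1, a protease that cleaves chordin and procollagen and is no BMP ligand, was higher (1.12 ± 0.13, adjusted p = 0.0013).

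Of 11 other BMP target genes tested 2 were higher and 1 lower over d6 to d12, near or under the 19.6% and 18.7% of all genes. Atoh8 (0.94 ± 0.21, edgeR adjusted p = 0.0134) and Gata3 (0.82 ± 0.16, adjusted p = 0.0074) were higher, and Atoh8 was no longer called without d8 or d10 (adjusted p = 0.0717 and 0.0573). Tbx3 was lower (-0.49 ± 0.16, adjusted p = 0.0497), a call lost without d8, d10 or d12 and on library totals (adjusted p = 0.0579). Hand1, at 298.9 CPM in shDis3l2 and 151.5 CPM in shLacZ at d6, was not called (0.64 ± 0.46, adjusted p = 0.312), nor was Id4 (0.22 ± 0.29, adjusted p = 0.576). The median difference of the list was 0.22, against 0.02 for all genes tested.

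All 3 E protein genes, whose products ID proteins bind, were called higher in the line labelled shDis3l2 over d6 to d12. Of all genes tested 19.6% were called higher. Tcf4 stood at 75.4, 56.8, 57.9 and 65.6 CPM in shLacZ and 108.6, 99.1, 100.1 and 110.3 CPM in shDis3l2 (0.71 ± 0.08, log2, SE; edgeR adjusted p = 0.00097). Tcf12 (0.65 ± 0.08, adjusted p = 0.0014) and Tcf3 (0.54 ± 0.10, adjusted p = 0.0079) were higher as well. For each of the 3 genes every shDis3l2 value from d6 on was above every shLacZ value from d6 on.

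Of the pathway genes named, Gdf3, Smad1, Smad4, Fst, Crim1, Bmper, Atoh8, Gata3 and Tbx3 were not called without the day block (adjusted p = 0.0792 for Smad4 to 0.773 for Bmper).

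**Figure D5:**
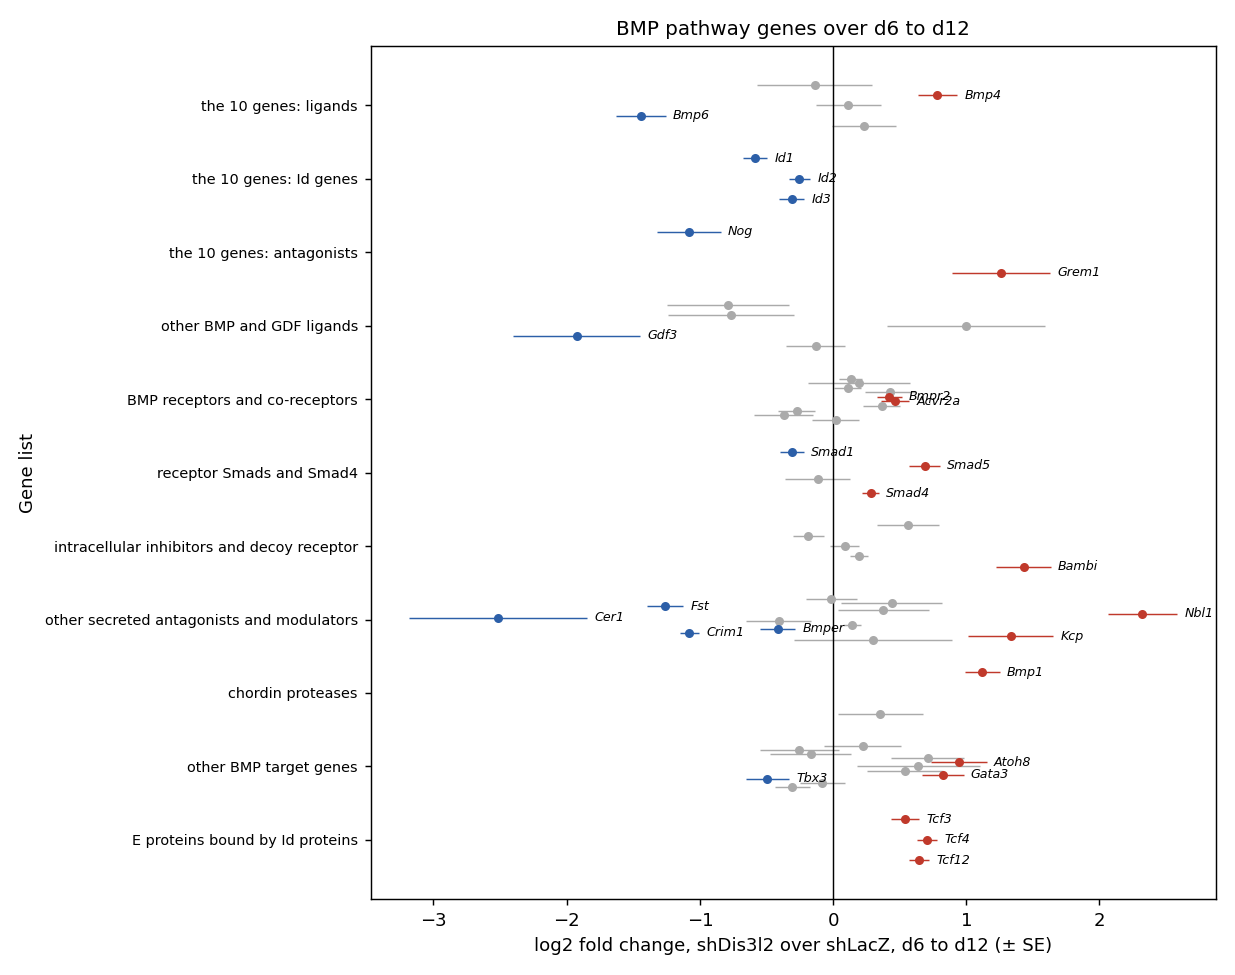
Difference between the lines over d6 to d12 (horizontal axis, log2 fold change of shDis3l2 over shLacZ ± SE from edgeR, days as blocks) for each tested gene of each list (vertical axis). Genes called higher are red, those called lower blue and the others grey, and names are printed for called genes. Id1, Id2 and Id3 lie left of 0 and all 3 E protein genes right of it. Id4, shown among the other BMP target genes, also lies right of 0 (0.22) and was not called.

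Markers of several cell types moved with these differences. Over d6 to d12 the summed level of 10 mesenchyme-like markers was 404 to 1928 CPM in shLacZ and 1244 to 16500 CPM in shDis3l2, with 8 of 10 called higher. That of 10 visceral endoderm-like markers was 3059 to 6804 CPM and 710 to 2062 CPM, with 9 of 10 lower, and that of 10 pluripotency markers was 529 to 643 CPM and 176 to 442 CPM, with 8 of 10 lower. Cardiomyocyte-like markers, of which 5 of 5 tested were higher, summed to 19.1 to 38.8 CPM and 37.4 to 176.8 CPM. Of blood-like and endothelial-like markers 1 of 5 each was higher, near the 19.6% of all genes, and of 6 neural-like markers 1 was higher and 3 were lower. Of all genes tested 18.7% were called lower. Marker calls were not followed on leaving out single days, apart from Tbx3, which is also in the list of target genes. The calls among all genes fell from 6574 to 3449 without d8 and to 3336 without d10. Collagen RNA made up most of the mesenchyme-like sum in shDis3l2 at d12, with Col3a1, Col1a1 and Col1a2 at 7939, 3539 and 3113 CPM. Pdgfra and Thy1 were the mesenchyme-like markers not called. Nanog and Dppa3 were the pluripotency markers not called. Both were lower in shDis3l2 from d6 to d10 but higher at d12, Nanog at 50.4 CPM against 43.8 CPM in shLacZ. Klf4, counted in the pluripotency sum, stood in shLacZ at 158.1 CPM at d12, above its 76.5 CPM at d0. None of the mesenchyme-like, endoderm-like or pluripotency markers was at 0 in all of these libraries. The part of these shifts in the differences of the BMP genes was not tested, and in whole EBs fewer cells of a type and less RNA per cell cannot be told apart.

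Genes whose course over the 14 libraries was most like that of a member were named by the highest Pearson r of log2(CPM + 1) among 11568 protein-coding genes, as a description only, since all points share their libraries and the course of differentiation. Bmp4 was nearest to Tgfb2 (r = 0.983), Unc5c (0.977) and Lama4 (0.974), and Bmp5 to Hand1 (0.983), Slc6a17 (0.980) and Krt18 (0.974). Bmp2 was nearest to Sc5d (0.964), Arl2bp (0.960) and Zfp592 (0.960), and Bmp6 to Tmem150a (0.990), Rab20 (0.985) and Atp6v0a1 (0.975). Among the members themselves Bmp4 and Bmp5 were the most alike (0.971), while Bmp7 had no near partner among them (0.350 with Bmp4) and was nearest to Ube2m (0.916), Cyth2 (0.857) and Cpsf3 (0.856).

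Id1 was nearest to Actr2 (0.982), Xrn2 (0.978) and Kif23 (0.976), Id2 to AU015836 (0.973), 2900026A02Rik (0.971) and Dusp9 (0.971), and Id3 to Cdx2 (0.926), Msx2 (0.909) and Arfgap2 (0.906). The best partner of Id1 among the members was Id2 (0.765), that of Id2 was Bmp6 (0.823) and that of Id3 was Bmp2 (0.839). Nog was nearest to Gdf9 (0.953), Thbd (0.947) and Drp2 (0.943). Grem1, which stayed under 10 CPM, was not compared.

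By the gene positions deposited with the counts (GRCm38), Bmp4 lies on chromosome 14 at 46383520 to 46390669. Bmp5 lies on chromosome 9 at 75775364 to 75900310. Exons of both overlap an antisense gene, Gm15217 for Bmp4 and Gm26903 for Bmp5. Those genes reached at most 0.125 and 0.0942 CPM in any library. Id1, Bmp2, Bmp7 and Grem1 lie on chromosome 2, from 152736251, 133552159, 172868012 and 113746164, and Bmp6, Id2, Id3 and Nog lie on chromosomes 13, 12, 4 and 11.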

How the data were processed

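RNA of 14 libraries, 1 per line and day, was sequenced as PolyA+ RNA. The authors aligned reads to GRCm38 with Subread, used featureCounts for the counts per gene, which were deposited as whole reads without normalization. The deposited CPM, made by the authors, equal the count plus 0.25 over the total of listed genes for all 226534 values and served as a check, since CPM here were computed from the counts and library totals. The deposited gene length, in bases, gave CPM per kb. Genes were matched to GENCODE M21 (50462 of 50686).

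The lines were compared in R 4.3.3 with edgeR 4.0.16 (TMM, filterByExpr, quasi-likelihood F test, Benjamini-Hochberg adjusted p under 0.05) with day as block, once for all 7 days and once for d6 to d12. A change between stages and a change over days were tested too. All 10 genes passed the filter in each test. Days of 1 series stand in for replicates, so p-values cover only the spread between these libraries. The code was tested on simulated data. Folds on single days used a floor of 3 counts and a mark of 3-fold at 1 CPM or more. Named genes were the 10 members, up to 4 called genes of each pathway list by size of the d6 to d12 difference (otherwise the 2 most expressed), and the 3 genes most alike in course. 1 gene of a pathway list is not reported here. Members and lists were chosen with earlier results of these data known. Alternatives were library totals, DESeq2 size factors, no low-count filter, DESeq2 1.42.0, no day block and leaving out each day. Python 3.11.15 with scipy 1.17.1 gave intervals.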

Additional observations from a re-analysis of the deposited data

Results flagged for a closer look

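For 5 pathway genes outside the 10, the difference between the lines changed from d0 to d4 to d6 to d12 by a test of that change itself (edgeR, adjusted p under 0.05). The difference (shDis3l2 over shLacZ) was higher in the later stage by 0.80 (log2) for Bmpr2 (adjusted p = 0.0301), by 1.48 for Bambi (adjusted p = 0.014), by 2.71 for Nbl1 (adjusted p = 0.0077), by 1.19 for Bmp1 (adjusted p = 0.0132) and by 0.65 for Tcf12 (adjusted p = 0.0299). The call was lost without d0, d2, d8 or d10 for Bmpr2, without d2 for Bmp1 and without d2, d8, d10 or d12 for Tcf12. These genes were looked for among those named for the size of their d6 to d12 difference in the same data. They were 1 of 11 receptors and co-receptors tested, 1 of 5 inhibitors, 1 of 12 secreted modulators, 1 of 2 chordin proteases and 1 of 3 E proteins. None of 6 other ligands, 4 Smad genes or 12 other target genes was called. None of the 10 genes themselves passed this test, which called 10.1% of all genes, the share against which these counts are to be read.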

How the results depend on the processing

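The number of genes called over 7 days was 1147. It was 2093 without the low-count filter, 2511 with DESeq2 and 0 without the day block (edgeR, with 627 genes at an unadjusted p under 0.05), and 8 to 2189 without single days. Over d6 to d12 it was 6574, against 3334 without the day block and 3336 to 6677 without single days. For the change between stages it was 2023, against 3279 without the filter and 524 to 2151 without single days, and for the change over days 16985, against 11270 to 16894. Of the 10 genes 2, 7, 0 and 10 were called in these tests. Without the day block 0 were called over 7 days and 1 of 9 tested, Bmp6, over d6 to d12. The change between stages was called for 1 on library totals, 3 without the filter and 1 with DESeq2. Without single days 0 to 3, 3 to 9, 0 to 2 and 9 to 10 were called.

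Directions turned for values that were not called. Without the day block Bmp2 was at 0.31 over 7 days and 0.40 over d6 to d12, and Bmp5 at 0.16 over 7 days. For the change between stages Bmp7 was at 0.15 on library totals and 0.004 without the filter, and Bmp6 at 0.023 on library totals. Without single days, over 7 days Id3 ranged from -0.24 to 0.006. Over d6 to d12 Bmp2 ranged from -0.74 to 0.21 and Bmp5 from -0.15 to 0.40. For the change between stages Bmp2 ranged from -0.19 to 0.93, Id1 from -0.62 to 0.18, Bmp7 from -0.46 to 0.46, Bmp6 from -0.22 to 0.019 and Id2 from -0.94 to 0.13.

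Genes at least 3-fold apart numbered 349, 32, 265, 896, 1236, 1618 and 1326 from d0 to d12. Without a minimum CPM they numbered 2253, 1561, 2185, 2881, 3204, 3671 and 3078, and at 2-fold 1437, 225, 865, 1984, 2713, 3191 and 2451. Of 192 folds of members on single days under other scalings, 186 stayed within the counting interval and none of those past 3-fold turned. The 6 that moved were all at d0. The tests pair the lines by day, and the fits without the day block are their unpaired form. The cause of these changes was not tested. Depth limits Grem1 and, before d10, Nog, whose counting intervals are wide.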
